A study of Mus musculus with 148 samples.

Results

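Galectins are lectins that bind β-galactoside sugars on glycoproteins, and 3 of their genes, Lgals1, Lgals3 and Lgals9, were followed here through the immune cells of lung metastasis. The genes were taken by name from the 52634 gene rows of the count tables, and all 3 were found. Their levels are given as CPM, the UMIs of a gene in 1000000 UMIs (a UMI, or unique molecular identifier, marks 1 captured mRNA molecule), after the cells of 1 mouse, 1 tissue and 1 subpopulation label were summed, for sums of at least 10 cells. Single cells had been sorted into plates from PA-GFP mice, C57BL/6 animals whose cells carry a GFP that is switched on by light. In the tumor model, females aged 8 weeks received cells of EO771-tdTomato, a red fluorescent mouse breast cancer line, in a mammary gland, and tumors were removed after 3 weeks. The groups were Normal lungs of uninjected mice (3 mice), Pre-MET lungs of mice that still bore the tumor (3), Relapse-free lungs after resection in which no metastasis had appeared (6), distal normal tissue of metastatic lungs (14), dissected metastases (MET, 13), metastasis core (13) and invasive margin (7), both marked by photoactivation, and Primary tumors (4). Lung and tumor cells were sorted as CD31- CD45+, and core and margin cells as CD31- GFP+, without a CD45 gate except in the core of mouse 17, whose plates all had one. Relapse-free mice 6 and 7 included GFP-gated plates, some of CD31- GFP+ cells and some of CD31- GFP- CD45+ cells. All mice came from 1 tumor line and 1 host strain, and 3 of the Primary tumors came from the Pre-MET mice. MET, distal normal tissue, core and margin samples came in large part from the same animals.

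Galectins are made in the cytosol and leave the cell without a signal peptide. Galectin-1, encoded by Lgals1, forms dimers and binds CD45, CD43 and CD7 on T cells. Galectin-3, encoded by Lgals3, joins a sugar-binding domain to a tail through which it oligomerizes, and is long known in mice as the macrophage antigen Mac-2. Galectin-9, encoded by Lgals9, carries a pair of sugar-binding domains on 1 chain, binds TIM-3 (Havcr2) and is known as an interferon-responsive gene.

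Lgals1 lies on chromosome 15 (78926725 to 78930465, plus strand, GRCm38) and its first listed transcript has 4 exons. Lgals3 lies on chromosome 14 (47367751 to 47386160, plus strand), with 6 exons, and Lgals9 on chromosome 11 (78962974 to 78984946, minus strand), with 11 exons. The 300 bases around the start sites of Lgals3 and Lgals9 (250 before and 50 after, RefSeq, GRCm38.p6) are shown because these genes differed most in how their levels were spread over labels, and no entry for Lgals1 was in the promoter table used. Lgals3 has 6 listed transcripts, and its window lies inside the gene span given above, so it shows 1 start site and not the outermost. For Lgals9 (chr11:78984875-78985174, minus strand) capitals mark the core of an interferon-stimulated response element, GAAA repeated after any 2 bases, read on either strand, and for Lgals3 (chr14:47373610-47373909, plus strand) capitals mark the GC box GGGCGG, also read on either strand.
Lgals9: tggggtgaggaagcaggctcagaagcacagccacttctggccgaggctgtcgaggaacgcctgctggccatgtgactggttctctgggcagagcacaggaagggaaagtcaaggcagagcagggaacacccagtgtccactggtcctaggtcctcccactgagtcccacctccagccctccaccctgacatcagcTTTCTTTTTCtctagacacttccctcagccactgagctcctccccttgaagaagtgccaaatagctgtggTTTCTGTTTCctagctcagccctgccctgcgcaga
Lgals3: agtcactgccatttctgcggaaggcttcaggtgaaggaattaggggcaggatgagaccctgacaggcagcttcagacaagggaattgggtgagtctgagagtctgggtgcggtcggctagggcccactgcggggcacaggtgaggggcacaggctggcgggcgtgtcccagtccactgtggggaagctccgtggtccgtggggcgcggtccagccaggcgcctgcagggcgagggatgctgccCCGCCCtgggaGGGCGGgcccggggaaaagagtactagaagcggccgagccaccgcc
The Lgals9 window held 2 matches to the response element core, a number reached by 0.225% of 32851 promoter windows of the same length, while 3.44% held at least 1. The Lgals3 window held none of them. The GC box was found in the Lgals3 window, as in 35.7% of all windows, and not in that of Lgals9. Neither window held TTCNNNGAA (8.3% of windows) or TGANTCA (7.81%). These are matches of letters only, and binding of a factor was not measured.

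In all, 23425 immune cells from 63 samples of 27 mice were used, with 55 to 1974 cells and 48306 to 2745794 UMIs per sample. They carried 27 of the study's subpopulation labels, of which 26 gave 510 sums with a median of 26 cells and 41252 UMIs. Lgals1 was counted with 75321 UMIs, Lgals3 with 75280 and Lgals9 with 10445, and 22, 39 and 51 of the 510 sums held no UMI of the respective gene. In 592 wells left without a cell, with a median of 8 UMIs per well and 8490 UMIs in all, 17 UMIs were of Lgals1, 17 of Lgals3 and 1 of Lgals9, a share within the range of the label means for each gene. All Normal plates were sequenced in a batch with no other group, so that this batch and the Normal state cannot be told apart. The lists of T, NK, B, monocyte, macrophage and DC markers stood highest under labels of the same name, but also appeared under others. Mac Cd81 and Mon MHC-II also carried a list of dendritic cell (DC) genes, at 15680 and 14310 CPM, against 28580 CPM in cDC2. Mac Isg20 carried the macrophage list (Mrc1, C1qa and Apoe) at 2495 CPM, against 14100 CPM in Mac Gpnmb. That was no higher than in the monocyte label Mon Ace, at 2557 CPM, and near Mon MHC-II, at 2152 CPM. CD8 Gzma cells carried the NK list (Ncr1, Klrb1c and Gzma, the gene that names the label) at 11960 CPM, against 15800 CPM in NK Ncr1 and 6407 CPM in NK Xcl1. The monocyte list (Ly6c2, Ccr2 and Csf1r) reached 2036 CPM in CD8 Gzmk cells, against 1733 CPM in Mon Ace. The carcinoma list (Krt8, Krt18, Epcam and Cldn4) averaged at most 174.5 CPM in any immune label. The labels come from a clustering of these same cells, so levels by label are a description without a test.

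The mean level of Lgals1 was highest in CD8 Gzma cells, at 6348 ± 2222 CPM (SD, n = 8 sums), followed by CD8 Lag3 cells at 4856 ± 1669 CPM (n = 7), NK Ncr1 cells at 4312 ± 1454 CPM (n = 40) and regulatory T cells (Treg) at 4027 ± 1849 CPM (n = 7). CD8 Gzma cells also carried the NK list at 11960 CPM with none of its genes at 0, and the T cell list (Cd3d, Cd3e and Trac) at 1192 CPM, and the part of this in their Lgals1 level was not tested. Naive labels were far lower, with 334.0 ± 326.1 CPM in CD8 Dapl1 (n = 9) and 235.0 ± 193.9 CPM in CD4 Lef1 (n = 46). B cells held 184.2 ± 164.5 CPM (n = 30) and the 4 neutrophil labels apart from PMN-MDSC between 33.74 and 145.2 CPM. Between each label and the next in this order the gap was smaller than the larger of their SDs, for 25 of 25 neighbouring pairs, and the steps were not tested.

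**Figure D1:**
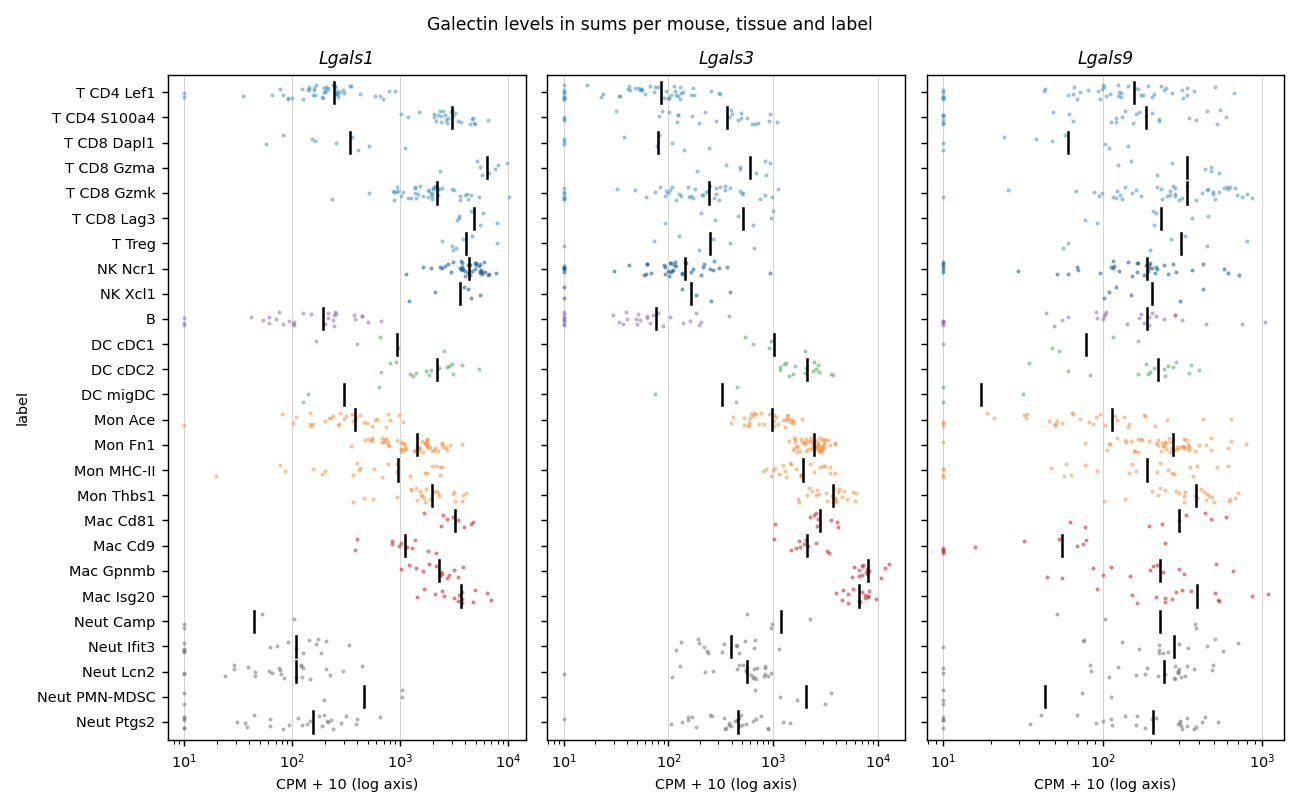
Levels of Lgals1, Lgals3 and Lgals9 by subpopulation label. The x axes show CPM + 10 on a log axis, each point is a sum of at least 10 cells of 1 mouse and tissue, and black bars are means. Lgals1 runs from 33.74 CPM in Neut Camp to 6348 CPM in CD8 Gzma, Lgals3 from 65.4 CPM in B cells to 8058 CPM in Mac Gpnmb, and Lgals9 stays below 400 CPM in every label mean.

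Activated T cells exceeded naive ones in Lgals1 within samples too. Among CD4 T cells, S100a4 cells exceeded Lef1 cells in 26 of 26 samples that had both, by a median of 3.37 on the log2 scale of CPM + 10, and Treg exceeded Lef1 cells in 7 of 7, by 3.95. Among CD8 T cells, Gzmk cells exceeded Dapl1 cells in 9 of 9 samples, by a median log2 difference of 2.84. No sample went against either order. In NK Ncr1 cells the tissue means ran from 3462 ± 1295 CPM in cores (n = 9) to 5102 ± 1485 CPM in MET (n = 8), with overlapping ranges. Gzma cells stood in turn above Gzmk cells in 8 of 8 samples (median log2 difference 1.86), and Lag3 cells, which carry the checkpoint receptor gene Lag3, in 7 of 7 (1.09). NK Ncr1 cells exceeded CD4 Lef1 cells in 35 of 35 samples, by a median log2 difference of 4.28, and CD8 Gzmk cells in 36 of 37, by 1.02.

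The single sums of naive and cytotoxic CD8 T cells were far apart, and the highest naive sums were those of mouse 17. In CD8 Dapl1 cells the 3 Normal mice gave 46.87, 242.1 and 153.2 CPM of Lgals1, the Relapse-free mice 6, 7 and 18 gave 141.9, 349.5 and 71.65 CPM, and the distal normal tissue of mouse 27 gave 393.8 CPM. The core and margin of mouse 17 gave 1101 and 506.3 CPM. In CD8 Gzma cells the Normal mice gave 7570, 5456 and 8112 CPM, Relapse-free mice 7 and 11 gave 9703 and 5141 CPM, and distal normal tissue of mouse 36 gave 5765 CPM. The core of mouse 17 held 6687 CPM and its margin 2349 CPM, the lowest of the 8 sums. Every Gzma sum thus lay above every Dapl1 sum. Treg, which were frequent enough only in tumors, cores and 1 margin, held 7922, 2445, 3795 and 4622 CPM in Primary tumors of mice 8, 9, 10 and 38, 3094 and 3303 CPM in cores of mice 17 and 36, and 3008 CPM in the margin of mouse 36.

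**Figure D2:**
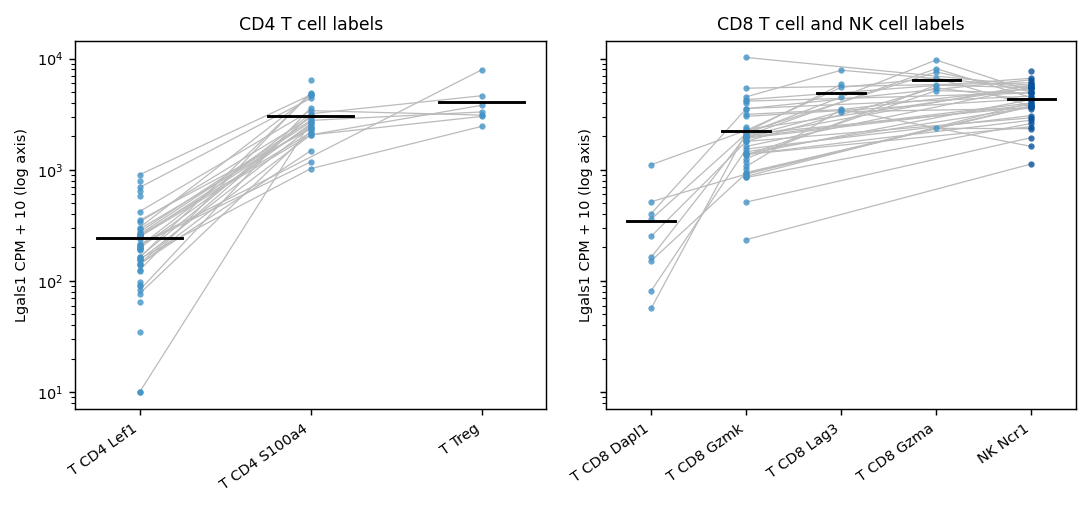
Lgals1 in T and NK cell labels. The y axis shows CPM + 10 on a log axis, each point is a sum of 1 mouse and tissue, gray lines join labels of the same sample and black bars are means. Every line from CD4 Lef1 to CD4 S100a4 rises (26 of 26 samples), as does every line from CD8 Dapl1 to CD8 Gzmk (9 of 9).

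Among myeloid labels Lgals1 was highest in Mac Isg20, Mac Cd81 and Mac Gpnmb, and lowest in 4 of the 5 neutrophil labels, with 449.4 ± 536.0 CPM in the other, PMN-MDSC (n = 5). Mac Isg20 held 3616 ± 1587 CPM (n = 15), Mac Cd81 3206 ± 1027 CPM (n = 9), Mac Gpnmb 2294 ± 830.8 CPM (n = 14), and the alveolar macrophage label Mac Cd9 1097 ± 531.3 CPM (n = 11). Among monocytes Mon Thbs1 held 1948 ± 1029 CPM (n = 25), Mon Fn1 1432 ± 717.8 CPM (n = 54) and Mon Ace 370.1 ± 263.0 CPM (n = 32). Mon Fn1 exceeded Mon Ace in 29 of 31 samples (median log2 difference 2.0). Mac Gpnmb lay below Mac Isg20 in 8 of 9 samples (-0.47), whereas for Lgals3 it lay above it in 7 of 9 (0.04). Among DCs, cDC2 held 2165 ± 1242 CPM (n = 16) and cDC1 929.8 ± 937.6 CPM (n = 5).

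Lgals3 followed another order, with a pair of macrophage labels at the top, the other macrophage labels among the monocytes, and B, naive T and NK cells at the bottom. The level was 8058 ± 2128 CPM in Mac Gpnmb (n = 14), the label that also carries the lipid receptor gene Trem2, and 6557 ± 1632 CPM in Mac Isg20 (n = 15). Mon Thbs1 followed with 3676 ± 1267 CPM (n = 25), and the step between it and Mac Isg20, 2881 CPM, was the only 1 of 25 steps in the order larger than both SDs. Mac Cd81 (2810 ± 981.9 CPM, n = 9), Mon Fn1 (2453 ± 592.6 CPM, n = 54), cDC2 (2096 ± 821.6 CPM, n = 16) and Mac Cd9 (2078 ± 713.7 CPM, n = 11) formed a middle group. Mon Ace held 963.6 ± 400.3 CPM (n = 32), and NK Ncr1, CD4 Lef1, CD8 Dapl1 and B cells 132.3, 74.14, 69.6 and 65.4 CPM. In neutrophils Lgals3 was highest in PMN-MDSC, at 2028 ± 1248 CPM (n = 5), and in Neut Camp, which carries the granule gene Camp, at 1167 ± 734.0 CPM (n = 4), and lower in Lcn2, Ptgs2 and Ifit3 neutrophils, at 552.5, 455.8 and 386.8 CPM. PMN-MDSC carried the neutrophil list at 17720 CPM, against 96290 to 359000 CPM in the other neutrophil labels, and the erythrocyte list at 714.1 CPM, the highest of any label, and the part of this in their Lgals3 level was not tested.

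Some pairs of labels were also compared within samples. Mon Fn1 exceeded Mon Ace in 31 of 31 samples, with a median log2 difference of 1.41 (from 0.46 to 2.1). Mac Isg20 exceeded Mon Fn1 in 13 of 13 (median 1.4, from 0.03 to 2.24) and Mon Thbs1 in 15 of 15 (0.94, from 0.0012 to 1.4), so each held a near tie. Mac Gpnmb exceeded Mon Fn1 in 11 of 11 (1.49, from 0.94 to 2.76). The step from Mon Fn1 to Mon Thbs1 was uneven, with 15 of 22 samples upward (0.39), and Mac Cd9 exceeded Mon Fn1 in 7 of 10 (0.18). Mac Cd81 lay below Mac Isg20 in 5 of 5 samples (-0.81). Mac Gpnmb and Mac Isg20 were close, with medians over sums of 7649 and 7102 CPM in MET.

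Single sums show the spread behind these means. Mac Gpnmb in MET held 10690, 5697, 6570, 7064, 7876, 7649 and 8216 CPM of Lgals3 in mice 23, 26, 28, 30, 31, 32 and 33. In cores of mice 30, 31 and 36 it held 6589, 7831 and 11730 CPM, and in margins of mice 17, 32, 33 and 36, 5909, 7085, 7260 and 12650 CPM. The ranges of the 3 regions overlapped, and the 2 highest values were the core and margin of mouse 36. Mac Isg20 ranged from 4522 to 9638 CPM over 8 MET sums and from 3979 to 8136 CPM over 7 cores. Mon Ace, by contrast, ranged from 406.4 to 586.4 CPM in 3 Normal lungs and from 386.3 to 1535 CPM in 7 MET sums.

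**Figure D3:**
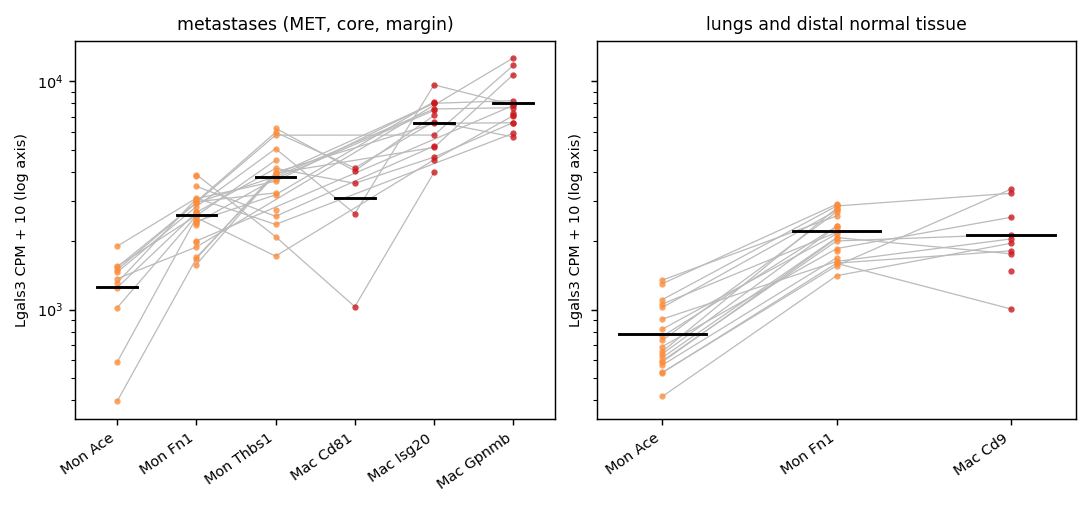
Lgals3 in monocyte and macrophage labels of metastases (left) and of lungs and distal normal tissue (right). The y axis shows CPM + 10 on a log axis, points are sums of 1 mouse and tissue, gray lines join labels of the same sample and black bars are means. In both panels every line from Mon Ace to Mon Fn1 rises, and on the left Mac Isg20 and Mac Gpnmb stand highest, with no Mac Gpnmb sum below 5697 CPM.

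Among CD8 T cells, Lgals3 was higher in the Gzma and Lag3 labels. Gzma cells held 590.0 ± 264.3 CPM (n = 8) and Lag3 cells 507.3 ± 358.2 CPM (n = 7), against 231.6 ± 254.6 CPM in Gzmk (n = 45) and 69.6 ± 76.58 CPM in Dapl1 cells (n = 9). Gzma exceeded Gzmk cells in 8 of 8 samples, by a median log2 difference of 2.38. The monocyte list summed to 1611 CPM in Gzma, 538.9 CPM in Lag3, 2036 CPM in Gzmk and 789.2 CPM in Dapl1 cells, the macrophage list to 198.9, 22.97, 56.63 and 49.16 CPM, and Gzma cells carried the NK list at 11960 CPM. The part of these markers in the Lgals3 levels was not tested. Treg, with 236.5 ± 222.2 CPM (n = 7), lay below CD4 S100a4 cells in 5 of 6 samples for Lgals3 and above them in 5 of 6 for Lgals1.

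Lgals9 was low in every label. Label means ran from 381.4 ± 275.7 CPM in Mac Isg20 (n = 15) and 376.5 ± 159.8 CPM in Mon Thbs1 (n = 25) through 327.8 ± 164.6 CPM in CD8 Gzma (n = 8), 299.2 ± 258.0 CPM in Treg (n = 7) and 264.6 ± 140.3 CPM in Mon Fn1 (n = 54) to 45.57 ± 69.51 CPM in Mac Cd9 (n = 11) and 7.172 ± 12.42 CPM in migratory DCs (n = 3, 1 UMI in all). For 25 of 25 neighbours the gap was within the larger SD. Few label pairs separated within samples. Mac Cd9 lay below Mon Fn1 in 10 of 10 samples (median log2 difference -2.74), CD8 Gzmk lay above Dapl1 in 8 of 9 (2.26) and Mon Fn1 above Mon Ace in 26 of 31 (1.36). Neut Ifit3, named for an interferon-induced gene, was above Neut Lcn2 in 9 of 16 samples (median 0.05) and above Neut Ptgs2 in 6 of 14 (-0.15).

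The label accounted for 75.8% of the variance of log2(CPM + 10) over the 510 sums for Lgals1 and 76.9% for Lgals3, but 26.5% for Lgals9. The tissue alone accounted for 9.06, 6.05 and 5.3%, and the sequencing batch for 4.16, 4.32 and 4.53%. For Lgals9, with a median sum of 41252 UMIs, 1 UMI is a sizable part of a sum's level, and how much of the rest is counting error was not separated. Pooled over all samples, monocytes gave 52.0% and macrophages 34.9% of the Lgals3 UMIs, with 35.0 and 13.1% of all UMIs. Lgals1 was shared more widely, with 28.4% from monocytes, 25.6% from T cells, 19.8% from NK cells and 17.4% from macrophages, and Lgals9 with 40.9% from monocytes, 19.7% from T cells, 15.3% from macrophages and 11.8% from neutrophils. Of all UMIs, T cells gave 22.3%, NK cells 8.06% and neutrophils 11.4%. The order differed between tissues, and in Normal lungs NK cells gave 45.2 ± 4.41% and monocytes 4.67 ± 1.9% of the Lgals1 UMIs, and T cells 41.1 ± 12.8% and monocytes 21.9 ± 10.8% of those of Lgals9 (n = 3).

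The share of cells with at least 1 UMI gave a similar picture, with some changes of order. To compare labels of unequal depth, each cell was thinned to 500 UMIs. Lgals3 was then seen in 88.4% of Mac Gpnmb, 85.2% of Mac Isg20, 57.9% of Mon Fn1 and 25.6% of Mon Ace cells, and in 3.05% of B cells. Without thinning these shares were 95.1, 95.1, 77.7, 42.8 and 6.49%, at median depths of 1730, 1330, 1500, 1050 and 1000 UMIs per cell. Lgals1 was seen after thinning in 77.6% of CD8 Lag3, 75.9% of CD8 Gzma and 59.9% of NK Ncr1 cells, against 8.49% of CD4 Lef1 and 6.74% of B cells (89.5, 85.7, 67.5, 13.9 and 12.1% without thinning). Mac Isg20, NK Xcl1 and Mac Cd81 stood between CD8 Gzma and NK Ncr1, at 66.1, 63.5 and 60.7% after thinning. B cells, the label with the lowest mean in these same data, serve here as the background for Lgals3 and are no independent blank. Labels near their share (3.05 ± 3.13%, SD) cannot be told from it. These were CD4 Lef1 cells at 3.52%, CD8 Dapl1 cells at 2.88% and NK Ncr1 cells at 4.8%. Lgals9 reached at most 13.7%, in Mac Isg20, with 4.78% in B cells.

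Over the 26 labels, the gene most like Lgals1 was S100a10, which encodes a partner of annexin A2 (Pearson r = 0.92 of log2(mean CPM + 10)), followed by Gm13433, Vps29, Bsg and Cd48. The genes most like Lgals3 were Cd68, a lysosomal glycoprotein of macrophages (r = 0.91), and the chemokine gene Ccl9 (0.90), followed by Dpep2, Psap and Cyba. For Lgals9 the highest values, for Eno1b, Cox19, Dynlt1-ps1, Gm20559 and the interferon-induced GTPase gene Gbp7, were only 0.70 to 0.71. These are the top 5 of 9040 genes for each, over 26 points that share libraries and depth, and are given as a description. Among themselves the 3 galectins were weakly related over labels, with r of 0.22 for Lgals1 and Lgals3, 0.32 for Lgals1 and Lgals9, and 0.17 for Lgals3 and Lgals9.

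Next, the tissues were compared. For each of 7 comparisons the UMIs of all immune cells of a sample, and then those of each label, were compared by the quasi-likelihood method of edgeR. The p-values were adjusted over all genes of a fit (Benjamini-Hochberg), with calls below 0.05. The 95% intervals were taken from the SE with a normal quantile, and are narrower than the test itself would give. Of the galectins, Lgals3 in the sum of immune cells changed in 4 of the 7 comparisons. In such sums, more cells of a type and more RNA per cell cannot be told apart. Normal lungs and distal normal tissue each entered 3 of the comparisons, and Relapse-free lungs and cores 2 each, so these share samples and are not independent.

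Lgals3 was higher in Pre-MET lungs and in distal normal tissue than in Normal lungs. In all immune cells the Normal mice gave 684.2, 744.2 and 467.7 CPM and the Pre-MET mice 1485, 1264 and 1715 CPM. The 2 groups did not overlap, and the log2 difference was 1.33 ± 0.18 (SE, edgeR adjusted p = 0.00025). With it, 9.88% of all 8180 genes passed the test, and how many of them did not overlap is not given. Relapse-free lungs gave 543.7 to 866.3 CPM (median 699.0, n = 6), which overlapped Normal lungs, with a log2 difference of 0.19 (95% interval -0.26 to 0.63, edgeR adjusted p = 0.97). In that comparison 0.0% of genes were called by edgeR (639 of 10820 at an unadjusted p below 0.05), and no galectin. Distal normal tissue gave 647.2 to 2157 CPM (median 1418, n = 14), with 13 of 14 samples above all Normal and Relapse-free samples and mouse 36 inside their range. The log2 difference was 1.21 ± 0.33 to Normal lungs (edgeR adjusted p = 0.037, 3.49% of genes called) and 1.04 ± 0.24 to Relapse-free lungs (edgeR adjusted p = 0.030, 1.22% of genes called).

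When single mice were left out, the Pre-MET comparison of Lgals3 kept its call in every omission, and those of distal normal tissue were less stable. Against Normal lungs the call was lost without Normal mouse 1, 2 or 3 or distal mouse 30 or 32 (edgeR adjusted p up to 0.28, log2 difference 1.04 to 1.32), and against Relapse-free lungs without Relapse-free mouse 6, 7 or 29 (up to 0.16, log2 difference 0.95 to 1.11). With sequencing batch as a term the difference from Relapse-free lungs was 1.10 with an edgeR adjusted p of 0.41. Within the 3 batches that held both groups it was 0.41 to 1.34, each upward but each with a single Relapse-free mouse. No batch held Normal lungs and another group, so the Pre-MET and distal comparisons with Normal lungs could not be checked in this way.

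Dissected metastases held more Lgals3 again. MET gave 1422 to 4446 CPM (median 2595, n = 13), above the distal normal tissue of the same mouse in 13 of 13 mice, by 0.32 to 2.02 on the log2 scale. The ranges of the groups overlapped, and the log2 difference was 0.97 ± 0.20 (edgeR adjusted p = 0.0032, 2.31% of genes called). The call held without any single mouse (log2 difference 0.89 to 1.03) and with batch as a term (1.09, edgeR adjusted p = 0.00052). Lgals1 stood at 1388 ± 558.0 CPM in distal normal tissue (n = 14) and 1957 ± 735.0 CPM in MET (n = 13). It was not called, with a log2 difference of 0.53 ± 0.22 (edgeR adjusted p = 0.33), but passed with the mouse as a block, at 0.55 ± 0.14 (edgeR adjusted p = 0.018), and was higher in MET in 12 of 13 mice. Lgals9 was higher in MET in 8 of 13 mice and was not called (0.25, 95% interval -0.14 to 0.64, edgeR adjusted p = 0.68).

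Within the labels that could be tested, Lgals3 did not pass in any of these comparisons, though it did in some with other settings. For MET against distal normal tissue, neither Mon Thbs1 nor any macrophage label had 3 mice in each group, so they were not tested. For Pre-MET against Normal lungs no macrophage label was tested either. In Mon Fn1, the label with the most Lgals3 UMIs, MET and distal normal tissue gave 2484 ± 525.2 and 2388 ± 497.4 CPM (n = 13 each). The log2 difference was 0.05, with a 95% interval from -0.24 to 0.33 (edgeR adjusted p = 1.00). Normal lungs gave 1588, 1988 and 1398 CPM in this label and Pre-MET lungs 2171, 2303 and 2563 CPM, which did not overlap, with a log2 difference of 0.47 ± 0.20 that was not called (edgeR adjusted p = 0.33). In that fit 442 of 3273 genes, Lgals3 among them, had an unadjusted p below 0.05. Without a filter on low counts the difference in Mon Fn1 was called, at 0.83 (edgeR adjusted p = 0.0496). In sums over all monocyte labels Lgals3 was called for Pre-MET (1.01, edgeR adjusted p = 0.0035) and for distal normal tissue (1.03, edgeR adjusted p = 0.027) against Normal lungs, and in sums over all macrophage labels for MET against distal normal tissue (1.08, edgeR adjusted p = 0.021). Such sums also hold differences in the mix of labels. The share of all genes called under these other settings is not given, so whether Lgals3 stood out there cannot be told. The largest of the uncalled differences were in CD4 S100a4 cells, where distal normal tissue gave 611.2, 655.8 and 709.9 CPM, Normal lungs 368.3, 157.8 and 71.06 CPM and Relapse-free lungs 21.31 to 384.1 CPM (n = 5), so that distal normal tissue overlapped with neither. The log2 difference was 1.88 (95% interval 0.58 to 3.18, edgeR adjusted p = 0.19) to Normal and 1.97 (0.69 to 3.25, edgeR adjusted p = 0.38) to Relapse-free lungs. An unadjusted p below 0.05 was reached by 95 of 632 and 110 of 1506 genes of these fits. Mon Ace gave 519.0, 586.4 and 406.4 CPM in Normal and 1048, 629.8 and 1337 CPM in Pre-MET lungs, also without overlap (0.93, 95% interval 0.31 to 1.56, edgeR adjusted p = 0.24). In that fit 165 of 1618 genes had an unadjusted p below 0.05. How many other genes were without overlap in these fits is not given.

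The cells that supplied Lgals3 differed between tissues. In Normal lungs macrophages gave 50.4 ± 2.33% of the Lgals3 UMIs of a sample, with 48.6% from Mac Cd9, and monocytes 31.8 ± 6.07% (n = 3). In Pre-MET lungs monocytes gave 91.0 ± 3.57%, with 79.8 ± 1.16% from Mon Fn1 alone, and macrophages 1.86 ± 2.28% (n = 3). Of all UMIs, Mac Cd9 gave 15.9 ± 4.69% in Normal and Mon Fn1 50.6 ± 5.89% in Pre-MET lungs. In distal normal tissue Mon Fn1 gave 57.8 ± 18.8% of the Lgals3 UMIs and 34.6 ± 14.6% of all UMIs (n = 14). Metastases drew on several labels, with 29.8 ± 25.2% from Mon Fn1, 18.9 ± 15.2% from Mac Gpnmb, 16.2 ± 11.6% from Mac Isg20 and 14.7 ± 9.81% from Mon Thbs1 (n = 13), and Primary tumors on Mon MHC-II (28.9 ± 3.65%), Mon Thbs1 (22.7 ± 9.91%) and Mac Cd81 (21.2 ± 7.68%, n = 4). Of all UMIs these labels gave 24.6 ± 13.4, 7.28 ± 6.18, 7.61 ± 6.94 and 11.3 ± 8.01% in metastases, and 21 ± 1.17, 13.6 ± 5.71 and 19.3 ± 7.19% in Primary tumors.

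To set the label mix beside these levels, each label was held at its mean CPM over all samples and weighted by its share of the UMIs of a sample. For Lgals3 this gave a difference of 743.4 CPM between Pre-MET and Normal lungs, where 855.9 CPM were measured. It gave 617.7 of 761.2 CPM for distal normal tissue against Normal, 558.3 of 692.2 CPM against Relapse-free lungs, and 1085 of 1302 CPM for MET against distal normal tissue. On the log2 scale the values from the mix were smaller beside the measured ones, at 0.89 of 1.24, 0.74 of 1.10, 0.66 of 0.94 and 0.76 of 0.93. The label means come from these same samples, and the part of the mix in the measured differences was not tested. Levels from the mix lay above the measured ones in Normal lungs (858.1 against 632.0 CPM) and Relapse-free lungs (917.5 against 701.0 CPM) and below them in Primary tumors (1975 against 2284 CPM).

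**Figure D4:**
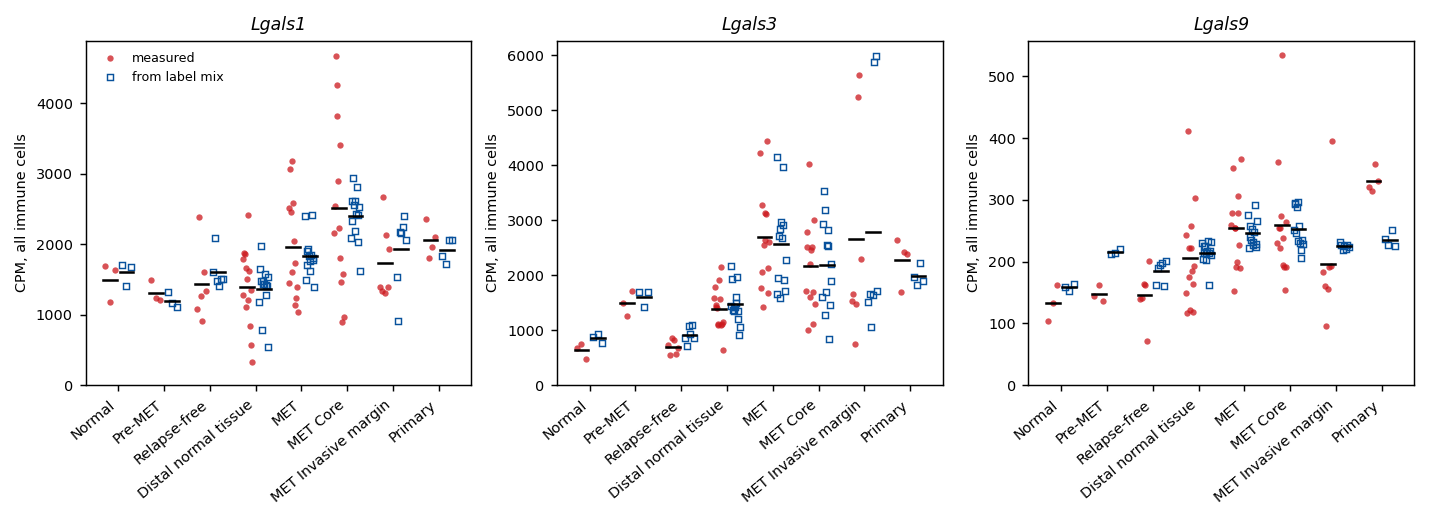
Measured galectin levels in the sum of all immune cells (red points) and levels obtained from the label mix with every label held at its mean (blue squares), by tissue. The y axis is CPM, each symbol is 1 sample and black bars are means. Lgals3 rises from 632.0 CPM in Normal lungs to 2695 CPM in MET and its mix from 858.1 to 2561 CPM, and Lgals9 in Primary tumors (331.2 CPM) stands above its mix (235.1 CPM).

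Lgals1 was called within Mon Fn1, while its level in the whole did not pass the test. Whether Mon Fn1 differed in this from other labels was not tested. In all immune cells its means were 1498 CPM in Normal, 1313 CPM in Pre-MET, 1431 CPM in Relapse-free lungs and 1388 CPM in distal normal tissue, and none of the 4 comparisons among them was called (edgeR adjusted p from 0.75 to 1.00). In Mon Fn1, the monocytes that carry fibronectin, the Normal mice gave 701.5, 752.4 and 520.9 CPM and the Pre-MET mice 1566, 1758 and 1773 CPM, with no overlap. The log2 difference was 1.33 ± 0.23 (edgeR adjusted p = 0.016), and how many other genes were without overlap is not given. In this fit 0.367% of 3273 genes were called, and Lgals1 was the only galectin call among 12 tests of members over the 8 labels of the comparison, where 0.213% of all tests passed. Mon Fn1 cells gave 2.8 ± 1.34% of the Lgals1 UMIs and 5.93 ± 0.82% of all UMIs in Normal lungs, and 66.1 ± 12.2% and 50.6 ± 5.89% in Pre-MET lungs. NK Ncr1 cells gave 43.8 ± 3.14% of the Lgals1 UMIs and 14.4 ± 2.67% of all UMIs in Normal lungs, and 3.04 to 23.9% and 1.31 to 5.45% in Pre-MET lungs.

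In distal normal tissue Lgals1 in Mon Fn1 ranged from 1004 to 2685 CPM (median 1367, n = 13), and all 13 values lay above the Normal ones, with a log2 difference of 1.18 ± 0.32 (edgeR adjusted p = 0.021, 6.35% of the genes of that fit called). How many other genes of that fit were without overlap is not given. In Relapse-free lungs Lgals1 in Mon Fn1 ranged from 493.5 to 1412 CPM (median 687.3, n = 6). Mouse 35, at 1412 CPM, overlapped distal normal tissue and the other 5 did not. The log2 difference between these groups was 1.00 ± 0.25 (edgeR adjusted p = 0.046, 0.685% of genes called). Relapse-free and Normal lungs overlapped, with a difference of 0.16 (95% interval -0.55 to 0.86, edgeR adjusted p = 0.98). Over all labels, 1 of 13 member tests was called for distal normal tissue against Normal (3.48% of all tests) and 1 of 21 against Relapse-free lungs (0.264%), both of them Lgals1 in Mon Fn1. MET and distal normal tissue were alike in means, at 1537 ± 672.3 and 1531 ± 539.7 CPM (n = 13 each), with a difference of 0.01 (95% interval -0.39 to 0.41, edgeR adjusted p = 1.00). Cores gave 2091 ± 974.6 CPM (n = 7) and Primary tumors 914.1 ± 589.2 CPM (n = 4) in these monocytes, a difference that was not called (-1.08 ± 0.41, edgeR adjusted p = 0.26, 0.59% of genes called). No main batch was shared by cores and Primary tumors for this label, so batch and tissue cannot be told apart.

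**Figure D5:**
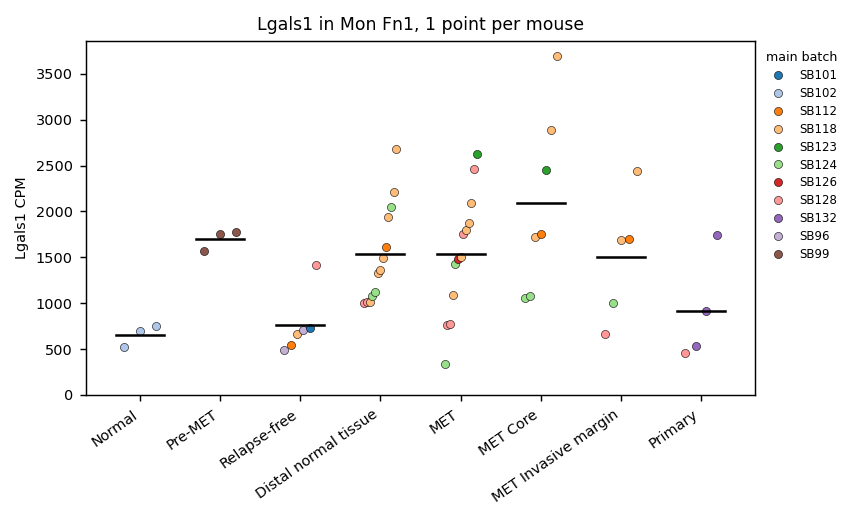
Lgals1 in Mon Fn1 monocytes by tissue. The y axis is CPM, each point is 1 mouse colored by the sequencing batch that gave most of its cells, and black bars are means. Normal mice stay at or below 752.4 CPM and Pre-MET mice at or above 1566 CPM, all 3 Normal mice share a batch, and 1 Relapse-free mouse stands at 1412 CPM.

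These Lgals1 calls rested on few mice. The Pre-MET call was lost without Pre-MET mouse 8, 9 or 10 (edgeR adjusted p up to 0.11) and that of distal normal tissue against Normal without any 1 of the 3 Normal mice (up to 0.13), while the log2 differences stayed between 1.06 and 1.58. Both were also lost with cells of at least 1000 UMIs, at 1.18 and 1.14 (edgeR adjusted p = 0.059 and 0.052), and that of distal normal tissue without a filter on low counts, at 1.33 (edgeR adjusted p = 0.061). Against Relapse-free lungs the call was lost in 13 of 19 omissions, those of distal mice 24, 25, 26, 27, 28, 30, 32 and 37 and of Relapse-free mice 6, 7, 11, 18 and 29 (edgeR adjusted p up to 0.26, log2 difference 0.88 to 1.28). With batch as a term it was 0.65 (edgeR adjusted p = 1.00). Within batches, distal normal tissue was higher in a pair of them, at 1611 against 540.4 CPM and 1720 against 666.7 CPM, and lower in the third, at 1008 against 1412 CPM, each with a single Relapse-free mouse.

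Markers of other cells also moved in Mon Fn1. The macrophage list summed to 2111 to 2344 CPM in Normal mice, 187.6 to 234.1 CPM in Pre-MET, 381.4 to 3500 CPM in Relapse-free and 70.45 to 1949 CPM in distal normal tissue, with C1qa at 0 in Normal and Mrc1 and C1qa at 0 in Pre-MET lungs. The neutrophil list (S100a8, S100a9, Csf3r and Retnlg) summed to 110.8 to 493.5 CPM in Normal mice, with Retnlg at 0, and 1057 to 2198 CPM in Pre-MET mice. The list of NK genes summed to 92.3 to 164.5 CPM in Normal and 7.503 to 36.49 CPM in Pre-MET mice, with Klrb1c at 0 in Pre-MET lungs. The alveolar macrophage list (Ear2, Chil3, Marco and Siglecf) summed to 618.0 to 1163 CPM in Normal and 1654 to 3004 CPM in Pre-MET mice. It summed to 645.1 to 4612 CPM in Relapse-free lungs and 883.0 to 8136 CPM in distal normal tissue, where Marco was at 0. In Pre-MET lungs the macrophage and NK lists were thus lower than in Normal lungs, and the neutrophil and alveolar macrophage lists higher. The DC list was also lower, at 90.82 to 175.1 CPM in Pre-MET against 438.7 to 859.9 CPM in Normal mice. Xcr1 was at 0 in both, and Ccr7 in Pre-MET lungs. So was the monocyte list of the label itself, at 2124 to 2669 against 2996 to 3784 CPM. The part of these markers in the Lgals1 difference was not tested.

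Between metastasis core and invasive margin no galectin was called, and 0.0% of genes were called by edgeR in the sum of immune cells (178 of 3578 at an unadjusted p below 0.05). Lgals3 in all immune cells ranged from 1004 to 4027 CPM in cores (median 2202, n = 13) and from 740.5 to 5638 CPM in margins (median 1659, n = 7). Margins of mice 32 and 33, at 5241 and 5638 CPM, stood above all cores, and the other 5 lay between 740.5 and 2290 CPM. The log2 difference, core minus margin, was -0.39 (95% interval -1.09 to 0.31, edgeR adjusted p = 0.98). Mac Gpnmb cells gave 9.0 to 91.9% of the Lgals3 UMIs over the 7 margins, with 1.17 to 68.0% of all UMIs. In the 6 mice that gave both regions, Lgals3 was higher in the core in 5, with log2 differences from -2.24 to 1.57. For Lgals1 the difference was 0.48 (95% interval -0.14 to 1.09, edgeR adjusted p = 0.95), with 2514 ± 1226 CPM in cores and 1738 ± 525.8 CPM in margins. At this spread differences of the size of the intervals cannot be seen.

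In Primary tumors the Lgals9 levels lay close together. The 4 samples gave 321.6, 314.4, 357.6 and 331.1 CPM in all immune cells, against 154.2 to 534.8 CPM in cores (median 239.0, n = 13), which overlapped, and the difference was not called (0.29, 95% interval -0.29 to 0.86, edgeR adjusted p = 0.71, 2.33% of genes called). Within the 3 mice that gave both a Primary tumor and a Pre-MET lung, the tumor was higher in 3 of 3 for each galectin, by 1.17 ± 0.22 (SD) on the log2 scale for Lgals9, 0.63 ± 0.08 for Lgals1 and 0.58 ± 0.21 for Lgals3. These pairs were not tested, and the main batch of each tumor differed from that of the lung, so batch and organ cannot be told apart. In Mac Cd81, Lgals9 was 466.6, 586.1, 324.4 and 429.9 CPM in Primary tumors and 226.7, 52.82 and 290.8 CPM in cores, without overlap. How many other genes were without overlap in this label is not given. No batch held both groups for this label, so batch and tissue cannot be told apart. The cores rest on 8 UMIs of Lgals9 against 768, and the log2 difference of 1.89 ± 0.59 was not called (edgeR adjusted p = 0.054), in a fit where 7.87% of genes were. It passed without a filter on low counts, with DESeq2, and without Primary mouse 8 or core mouse 30. No member test over labels was called for Primary tumors against cores (0 of 17, against 2.35% of all tests), for MET against distal normal tissue (0 of 12, 0.0208%), for core against margin (0 of 7, 0.0%) or for Relapse-free against Normal lungs (0 of 21, 0.0191%). At an unadjusted p below 0.05 there were 3, 0, 0 and 0 of them. The 3 were Lgals1 in Mon Fn1 and Mon Thbs1 and Lgals9 in Mac Cd81. In those fits 95 of 848, 333 of 2345 and 388 of 1563 genes passed that threshold. DESeq2 called 1, 0, 0 and 0 member tests, and its share over all genes is not given.

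Of the other galectin genes and relatives, all but Lgals8 and Lgals3bp were weakly counted in these cells. Lgals8, a galectin with a pair of sugar-binding domains, had 3753 UMIs, with its highest means in PMN-MDSC and in Mac Isg20 (183.4 CPM). Lgals3bp, which encodes a secreted glycoprotein that binds galectin-3, had 7412 UMIs and was highest in Mac Gpnmb, at 476.3 ± 381.4 CPM (n = 14), the label that was also highest for Lgals3. Lgalsl, Lgals7, Lgals4, Grifin, Lgals2 and Lgals12 had 188, 117, 46, 11, 3 and 1 UMIs. The single call among these genes over all comparisons was Lgals3bp in Mac Cd81, at 572.9 CPM in Primary tumors and 121.5 CPM in cores (log2 difference 2.57 ± 0.54, edgeR adjusted p = 0.0052, 1095 and 7 UMIs). In that fit 7.87% of genes were called, and batch and tissue cannot be told apart there either.

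Genes of glycoproteins that galectins bind were highest in various labels. The gap to the next label varied, and these orders were not tested. Of T cell receptors, Havcr2 and Lag3 were highest in CD8 Lag3 cells, at 205.9 ± 207.5 and 198.5 ± 203.1 CPM (n = 7), the label second highest for Lgals1. That label is named for Lag3, and Havcr2 was next in cDC1, at 169.7 CPM. Tnfrsf9, a costimulatory receptor, was highest in Treg, at 1464 ± 579.8 CPM (n = 7), and next in CD8 Lag3 cells, at 583.6 CPM. Spn, which encodes CD43, was highest in CD8 Gzma cells (476.9 CPM) and next in NK Ncr1 cells (422.7 CPM). Ptprc, which encodes CD45, was highest in NK Ncr1 cells (1889 CPM) and next in Neut Ptgs2 (1767 CPM). The lysosomal glycoprotein gene Lamp1 was highest in Mac Gpnmb (1385 CPM), as was Trem2 (641.1 CPM). Others were highest elsewhere, the integrin gene Itgam in Neut Camp (675.1 CPM), Lamp2 in Neut Ptgs2 (445.5 CPM), the hyaluronan receptor gene Cd44 in Mac Cd9 (1448 CPM) and Itgb1 in migratory DCs (496.0 CPM), while neutrophil labels other than PMN-MDSC were the lowest for Lgals1. Of the 21 partners and glycan enzymes, 16 could be tested between Pre-MET and Normal lungs in all immune cells. Itgam, an integrin chain of myeloid cells, and Lamp2 rose there by 1.11 ± 0.23 and 1.08 ± 0.22 (edgeR adjusted p = 0.0053 and 0.0052), and Spn fell by 0.94 (edgeR adjusted p = 0.0059). These were 3 calls of 16, where 9.88% of all genes of the fit were called, and the median log2 difference of the 16 was 0.22. Within labels, P4hb, a disulfide isomerase, was higher in Mon Fn1 of distal normal tissue than of Normal lungs, at 374.4 against 90.48 CPM (log2 difference 1.96 ± 0.50, edgeR adjusted p = 0.013, 6.35% of genes called), and Cd7 in cDC2 of Primary tumors than of cores, at 293.0 against 18.85 CPM (2.86 ± 0.80, edgeR adjusted p = 0.030, 1.79% of genes called). No glycan enzyme was called in any comparison with edgeR, and no partner in the other 4 comparisons.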

How the data were processed

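The authors mapped reads of the plate libraries to mm10, excluded reads with multiple positions, assigned them to exons from the UCSC genome browser and collapsed them to UMIs, and deposited raw UMI counts per gene and well with an annotation of cells (labels, mouse, status). bcl2fastq 2.15.0.4 is named in the submitters' processing notes. Libraries hold 3′ ends. Annotated immune cells of at least 500 UMIs were kept, and cells labelled Erythrocytes, Outlier or Tumor were left out. Doublets were not called again. Counts were summed per mouse, status and label (10 or more cells), with depth from 5720 to 731354 UMIs, and tested with edgeR 4.0.16 (TMM, filterByExpr, robust quasi-likelihood fit, Benjamini-Hochberg) in R 4.3.3, in labels with 3 or more mice per group. CPM use all UMIs of a sum. Fits were tested on simulated data. Python 3.11.15 with pandas 2.3.3 and numpy 2.4.6 was used, and matplotlib 3.10.9 for the figures. Positions come from GENCODE vM21 (GRCm38) and promoters from RefSeq.

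Replicates are mice. Pairs of MET and distal normal tissue (13) and of core and margin (6) come from the same animals, and after removal of group means the tissues of a mouse correlated over 3520 genes at -0.08 to 0.81 (median 0.24) and 0.02 to 0.73 (median 0.31). Intervals cover the spread between mice as fitted. The alternatives were DESeq2 1.42.0, no filter, sums of at least 5 or 20 cells, cells of at least 1000 UMIs, batch as a term, the mouse as a block, GFP-gated plates left out, lineage sums, pooled UMIs and leaving out each mouse. Omissions in groups of more than 5 mice were chosen after seeing the data. The genes named are the 3 members, the other galectins, a list of 21 partners and glycan enzymes (named where called or highest in a label) and the 5 genes most like each member. The members and lists were chosen with earlier results of these data known.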

Additional observations from a re-analysis of the deposited data

Results flagged for a closer look

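Of 48 groups of 4 to 10 sums, 6 had a value far from the others by Dixon's criterion, which chance meets in about 1 in 20 groups. In all immune cells of invasive margins, mouse 36 held 395.1 CPM of Lgals9, against 193.3 CPM in the next. In Mon Fn1, Relapse-free mouse 35 held 1412 CPM of Lgals1, against 732.9 CPM in the next, and core mouse 28 held 777.4 CPM of Lgals9, against 392.0 CPM. The core of mouse 17 held 1101 CPM of Lgals1 in CD8 Dapl1 cells (next 506.3 CPM, the margin of the same mouse), the Primary tumor of mouse 8 held 7922 CPM of Lgals1 in Treg (next 4622 CPM), and the core of mouse 30 held 2001 CPM of Lgals3 in cDC1 (next 932.5 CPM).

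Cells that were left out of the comparisons also held galectin UMIs. In cells labelled Tumor (2 sums, Primary tumors of mice 10 and 38) Lgals1 averaged 2824 CPM, Lgals3 1124 CPM and Lgals9 113.9 CPM. In cells labelled Erythrocytes (4 sums from mice 17 and 18) Lgals1 averaged 1258 CPM, Lgals3 388.6 CPM and Lgals9 197.8 CPM. The wells without a cell, with a median of 8 UMIs each, gave 17 UMIs of Lgals1 in 8490, a share that is not below that of the Erythrocytes.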

How the results depend on the processing

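The number of galectin tests called within labels was small and moved with the processing, and the cause was not tested. For Pre-MET against Normal lungs (1 call) it was 0 with cells of at least 1000 UMIs, 2 without a filter and 2 with lineage sums, for distal normal tissue against Normal (1 call) 0, 0 and 2. The added calls were Lgals3, in Mon Fn1 without a filter and in monocytes with lineage sums. For distal normal tissue against Relapse-free lungs (1 call) it was 0 with GFP-gated plates left out, cells of at least 1000 UMIs, no filter, batch as a term, sums of at least 20 cells or lineage sums. Leaving out mice gave 0 to 1 in each of these, and 0 to 1 for Primary tumors against cores (0 calls), where DESeq2 and no filter gave 1. MET against distal normal tissue (0 calls) gave 1 with lineage sums, Lgals3 in macrophages (edgeR log2 difference 1.08, adjusted p = 0.021). Batch could not be a term against Normal lungs. Settings also changed how many labels had a fit, so these counts are not like for like. Pre-MET against Normal lungs had 8 label fits, 4 with cells of at least 1000 UMIs and 6 with lineage sums. Distal normal tissue had 9, 4 and 7 against Normal. Against Relapse-free lungs it had 11, and 6 with those cells or with sums of at least 20 cells. The shares of all genes called under these settings are not given. With the mouse as a replicate block the calls within labels stayed at 0 for MET against distal normal tissue and for core against margin. The block brought in Lgals1 in all immune cells, 0.55, given above, left Lgals3 there at 0.95 and changed no other call. For Lgals3 in all immune cells of distal normal tissue, the call against Normal was also lost without a filter (1.07) and with cells of at least 1000 UMIs (1.11). The call against Relapse-free lungs was lost without GFP-gated plates, both GFP+ and GFP- (0.90, edgeR adjusted p = 0.068).

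Of 309 label levels recomputed, 12 moved by more than the SD between sums, all in labels of few sums. Lgals1 in Treg was 6272 CPM with at least 20 cells and in migratory DCs 628.5 CPM with 20 cells or 1000 UMIs. Lgals3 was 749.4 CPM in migratory DCs with 5 cells, and 335.7 and 375.3 CPM in NK Xcl1 with 5 and 20 cells. Lgals9 in PMN-MDSC was 121.0, 83.47, 105.2 and 86.73 CPM with 5 cells, 20 cells, 1000 UMIs or pooled UMIs, and in migratory DCs 27.0 CPM with 5 cells and 22.65 CPM pooled. Of 42 values of the composition, only the difference of Lgals9 from the mix between Pre-MET and Normal lungs moved, to 70.95 CPM with cells of at least 1000 UMIs. With those cells 4 differences that were not called changed sign, each by less than the SD between samples. Measured in all immune cells, Lgals1 went from -110.7 to 29.02 CPM for distal normal tissue against Normal and from -43.22 to 132.2 CPM against Relapse-free lungs, and Lgals3 from 121.5 to -410.0 CPM for Primary tumors against cores. From the mix, Lgals1 went from -0.72 to 26.14 CPM for Relapse-free against Normal lungs. Depth limits Lgals9 most, with 10445 UMIs in all.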
